A study of Rattus norvegicus with 20 samples.

Results

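Avp and Oxt are the rat genes of the neurohypophysial hormones vasopressin and oxytocin. They were chosen by name and make up 2 of the 32402 genes measured in the supraoptic nucleus (SON). The data were RNA-seq libraries from 20 male Wistar Han rats, 1 library per rat, in 4 groups of 5. Adult rats were 3 months old and aged rats 18 months old, and each age was either euhydrated (EH), with free access to water, or dehydrated (DH). The sample records give 2 days of dehydration, while the study's methods give a longer period. The labels name no transgene or deletion in any rat. Each library came from small punches of frozen brain, so it held RNA of glia, vessels and nearby neurons as well as of magnocellular neurons. By the study's methods, adult and aged rats were studied in parallel, and their punches, RNA and libraries were handled together.

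Magnocellular neurons of the SON and paraventricular nucleus make vasopressin or oxytocin as part of a larger precursor that also holds a neurophysin, the carrier protein of the hormone. The precursor is packed into dense-core granules, cut and amidated on the way down the axon, and released into the blood from the posterior pituitary. Vasopressin makes the kidney retain water through the receptor Avpr2, and oxytocin acts on the uterus and mammary gland and, in the rat, promotes the loss of sodium by the kidney. A rise in plasma osmolality activates both kinds of neuron in the rat, and dehydration is a standard stimulus for both hormones.

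The genes lie next to each other on chromosome 3 and are transcribed towards each other, Oxt (ENSRNOG00000021225) on the plus strand and Avp (ENSRNOG00000021229) on the minus strand of the RefSeq assembly GRCr8. The authors aligned reads to another assembly, Rn6, so these coordinates serve only to place the sequences. Both members were matched in the RefSeq promoter table. The 250 bases before each start are shown because the regulators described further on include genes of the CREB, AP-1 and nuclear receptor families. Some of the binding patterns of these families can be searched there. Each was read 5′ to 3′ on the gene's own strand, and the Avp stretch is chr3:138248523-138248772 and the Oxt stretch chr3:138235504-138235753. Capitals mark matches to the letters searched.
Avp: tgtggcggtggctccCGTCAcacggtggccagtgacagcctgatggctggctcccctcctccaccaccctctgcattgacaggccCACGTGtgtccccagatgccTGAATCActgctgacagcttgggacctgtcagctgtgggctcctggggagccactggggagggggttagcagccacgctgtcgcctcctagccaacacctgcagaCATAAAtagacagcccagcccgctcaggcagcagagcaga
Oxt: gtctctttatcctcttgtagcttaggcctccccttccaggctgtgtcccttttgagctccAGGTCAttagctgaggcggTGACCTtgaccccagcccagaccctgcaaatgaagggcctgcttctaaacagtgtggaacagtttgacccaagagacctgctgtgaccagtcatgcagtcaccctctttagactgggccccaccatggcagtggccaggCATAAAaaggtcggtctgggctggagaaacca

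The stretches shared 1 of the patterns searched. CATAAA, read on the gene's strand only as a TATA-like box, lay from base -40 to -35 before the start of Avp and from -32 to -27 before that of Oxt. It was present in 6.10% of the 33469 promoter windows of the same length, and TATAAA was in neither gene. The Avp stretch held 3 other matches. The CRE half-site TGACG, the core of the element bound by CREB-family proteins, was matched on the opposite strand from -235 to -231 (18.2% of all windows). The E-box CACGTG was matched from -165 to -160 (5.59% of windows), and the AP-1 pattern TGANTCA, which Fos and Jun proteins bind, from -145 to -139 (6.34% of windows). None of these was matched in the Oxt stretch, and the full CRE, TGACGTCA, which contains the half-site, was in neither (1.59% of windows). The Oxt stretch held the nuclear receptor half-site AGGTCA from -190 to -185 and again on the opposite strand from -171 to -166. That half-site, which was searched on both strands like the others, was in 14.1% of windows and not in the Avp stretch. These matches describe letters in a short window and do not show that a factor binds there.

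Avp and Oxt were among the most abundant transcripts of every library. Avp ranked 8 to 10 and Oxt 11 to 18 among all genes by reads, a ranking that does not correct for gene length. The libraries held between 24268398 and 30348118 reads on genes, and Avp was covered by at least 119432 and Oxt by at least 73651 reads, so counting error was small beside the differences between rats. The central exon of these genes, which encodes most of each neurophysin, is nearly identical between them. How the authors treated reads that align equally well to both is not given in the sources used here, so part of the reads may be assigned to the other gene. In bulk tissue, fewer cells of a type and less RNA per cell cannot be told apart.

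Levels of all 4 groups were put on 1 scale as CPM, the reads of a gene per 1000000 reads on genes. Avp in the 5 adult EH rats was 7317, 4305, 6332, 5943 and 7126 CPM, a mean of 6204 ± 1202 (SD, n = 5). In the adult DH rats it was 7127, 8927, 9545, 7968 and 8390 CPM (8392 ± 921). The lowest adult DH rat lay just below the highest adult EH rat, and the other 4 adult DH rats lay above all adult EH rats. In the aged EH rats Avp was 9318, 6224, 9038, 7185 and 5270.0 CPM (7407 ± 1756). In the aged DH rats it was 7000.0, 8759, 11418, 7791 and 7193 CPM (8432 ± 1804). The aged EH rats spread over most of the range of the series, with rats 1 and 4 near the top and rat 6 near the bottom. The aged DH group lay within that spread apart from rat 3, the highest Avp value of the 20 rats.

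Oxt, the gene of the oxytocin precursor, was 3171, 3034, 3301, 2897 and 2691 CPM in the adult EH rats (3019 ± 237, n = 5). In the adult DH rats it was 2970, 3123, 4128, 3112 and 3468 CPM (3360 ± 467). Only rats 3 and 5 of adult DH exceeded every adult EH rat. In the aged EH rats Oxt was 3136, 4185, 3256, 3599 and 3617 CPM (3559 ± 408), and in the aged DH rats 3367, 4308, 5183, 3900 and 2938 CPM (3939 ± 868). The lowest value in aged DH (rat 6) lay within the range of adult EH, and the highest (rat 3) was again the highest of the series.

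**Figure D1:**
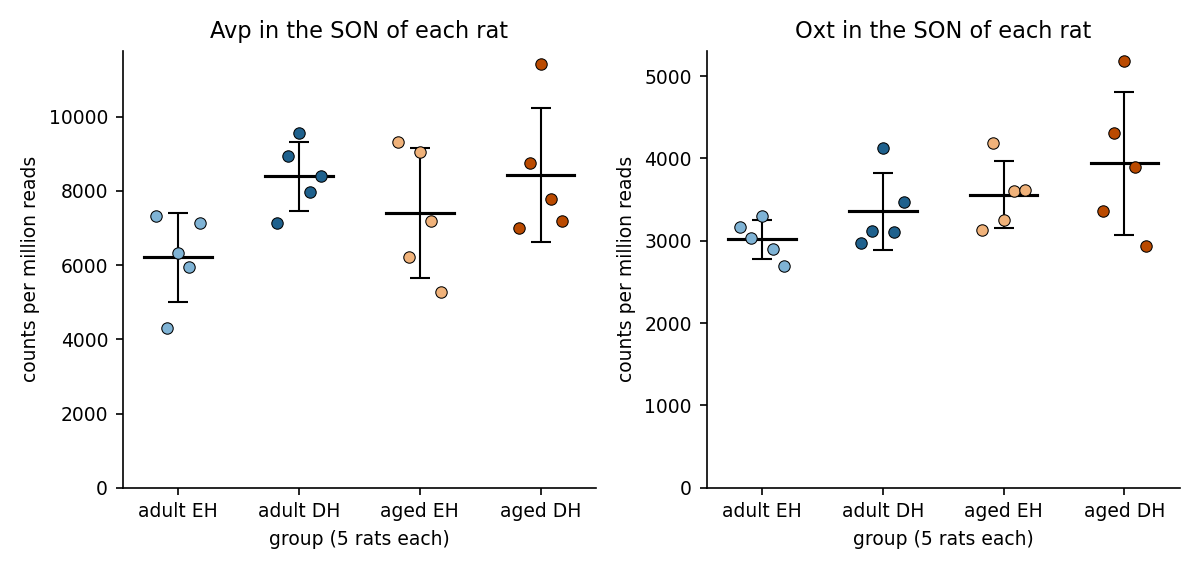
Avp (left) and Oxt (right) in CPM (reads per 1000000 reads on genes) in each of the 20 rats (points), by group, with the group mean (line) and SD (bars). Adult EH had the lowest mean for both genes, 6204 CPM for Avp and 3019 CPM for Oxt, and aged DH rat 3 the highest single values, 11418 and 5183 CPM.

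By mean level the groups were ordered from adult EH through aged EH and adult DH to aged DH for Avp, and from adult EH through adult DH and aged EH to aged DH for Oxt. In both orders each group overlapped with the next. For Avp, the neighbours adult EH and aged EH did not pass the test described below, and neither did adult DH and aged DH. For Oxt, the neighbours adult EH and adult DH did not pass, and neither did aged EH and aged DH. The middle neighbours of each order differ in both age and water supply, and were not compared by a test.

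In adult rats, DH asked how the genes respond to an osmotic challenge in the young animal. Avp rose, with a log2 difference (LFC) in normalised count of 0.48 (SE 0.12, limma adjusted p = 0.0221), which is 1.39-fold with a 95% interval from 1.16 to 1.68. The limma fit drew the spread of each gene towards that of genes of like level. Both members varied more than most such genes, and the residual SD of Avp was 0.248 here. Their SEs and intervals, here and below, are therefore narrower than their own rats alone would give. Its normalised counts were 225427 ± 24562 in adult DH and 163773 ± 32462 in adult EH (n = 5 each). Oxt did not pass the test, at an LFC of 0.17 (SE 0.081, limma adjusted p = 0.187) or 1.13-fold, with an interval from 0.9998 to 1.27. Its counts were 90259 ± 12356 against 79666 ± 6667. Of all genes tested in this comparison, 12.7% passed (1934 of 15280). The call for Avp was lost in 6 of 21 fits. It was lost without adult EH rat 5 (adjusted p = 0.0506), without adult DH rat 3 (0.0587) and when all 20 rats shared 1 estimate of the spread (0.0517), and over all fits the adjusted p ran from 0.0136 to 0.0875.

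Ageing was compared in EH rats, to see whether the resting level differs between the ages. Neither gene passed the test at the chosen threshold. Avp had an LFC of 0.28 (SE 0.16, limma adjusted p = 0.388), with an interval from 0.95-fold to 1.55-fold. Its normalised counts were 208102 ± 50116 in aged EH and 170733 ± 33907 in adult EH. Oxt had an LFC of almost the same size, 0.26, with a SE of 0.074, and narrowly missed the threshold (limma adjusted p = 0.0524, interval from 1.07-fold to 1.34-fold). Its counts were 99877 ± 11106 against 83045 ± 6987. The groups overlapped through 1 aged EH rat, rat 1 with 88128 normalised counts, which lay below adult EH rats 1 and 4 with 88311 and 91089. Of all genes tested, 5.99% passed (921 of 15369). Oxt passed in 4 of 20 fits. These were edgeR (adjusted p = 0.0487) and DESeq2 (0.00626) on the recovered reads of the same 10 rats, and limma without aged EH rat 1 (0.0283) or without adult EH rat 4 (0.0458). Over all fits the adjusted p of Oxt ran from 0.00626 to 0.191. The study, which used DESeq2, reported Oxt as higher with ageing.

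In aged rats, neither gene passed the test for DH. The LFC of Avp was 0.21 (SE 0.16, limma adjusted p = 0.502), with an interval from 0.91-fold to 1.47-fold, at 238932 ± 52189 normalised counts in aged DH against 207734 ± 50326 in aged EH. The LFC of Oxt was 0.14 (SE 0.13, limma adjusted p = 0.575), with an interval from 0.92-fold to 1.33-fold, at 111627 ± 25062 against 99664 ± 11061. The share of all genes that passed was 7.29% (1119 of 15346). Aged DH rat 3 carried much of both values, which fell to 0.094 for Avp and 0.033 for Oxt without it. The adult DH comparison shares its control rats with the ageing comparison, and so does the aged DH comparison, so these 3 sets of values are not independent.

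The response in aged rats was compared directly with that in adult rats. For Avp the response of aged rats less that of adult rats was -0.27 on the log2 scale (SE 0.23, limma adjusted p = 0.754), with an interval from -0.74 to 0.20. For Oxt the difference was -0.03 (SE 0.17, limma adjusted p = 0.967), with an interval from -0.38 to 0.31. The interval for Avp includes both no difference and a loss of the whole adult response, so the call in adult rats and its absence in aged rats do not show that the ages differ. With limma 0 of 15326 genes passed (0% of those tested), and edgeR also called 0. At an unadjusted p below 0.05 there were 1522 genes (9.93%), a larger share than that threshold would give on average if no gene differed. Genes of the same libraries vary together, so this share cannot decide whether any gene differed between the ages. The end points were compared as well, in a comparison added after the data were seen. Aged DH and adult DH differed by an LFC of 0.029 for Avp (edgeR adjusted p = 0.929) and 0.25 for Oxt (edgeR adjusted p = 0.168), where 12.3% of all genes passed. Without aged DH rat 6 the value for Oxt was 0.34 (edgeR adjusted p = 0.0464), and over all fits its adjusted p ran to 0.480.

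**Figure D2:**
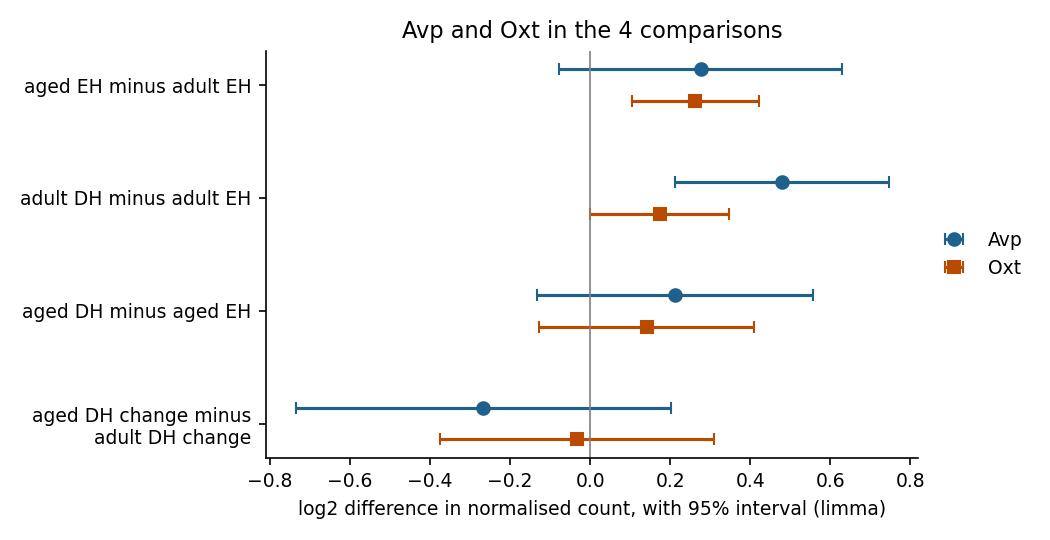
The log2 difference in normalised count (x axis) of Avp (circles) and Oxt (squares) in the 4 comparisons (y axis), with 95% intervals from limma. The interval of Avp in adult DH and that of Oxt in ageing lie above 0, and only the former passed after adjustment over all genes (adjusted p = 0.0221 and 0.0524).

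Both genes were also set against 4 transcription factors that mark the lineage of magnocellular neurons, Sim1, Otp, Pou3f2 and Arnt2, to see whether the amount of magnocellular tissue in a punch moved with the values. Their mean log2 level differed by 0.0066 in ageing, 0.013 in adult DH and -0.043 in aged DH (exact permutation p = 0.881, 0.849 and 0.540, two-sided). Relative to that mean in the same rat, Avp was higher in adult DH by 0.47 on the log2 scale. The unadjusted exact permutation p was 0.00794, the smallest that 5 rats against 5 allow, since every adult DH rat then lay above every adult EH rat. The relative difference of Avp was 0.27 in ageing and 0.255 in aged DH (exact permutation p = 0.19 and 0.167). For Oxt in ageing the relative difference was 0.26 (exact permutation p = 0.0714). None of these p-values was adjusted for the number of such tests. These factors are also made by other hypothalamic neurons, and 1 of them, Sim1, fell in aged DH (LFC -0.30, limma adjusted p = 0.0484). The call for Sim1 held without aged DH 3 or aged EH 6 only, and without any one of the other 8 rats the adjusted p ran from 0.0532 to 0.107.

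The ratio of Avp to Oxt reads in the same library is independent of library scaling. Because it is not per length, it was compared only between rats. In adult EH it was 2.31, 1.42, 1.92, 2.05 and 2.65, and in aged EH 2.97, 1.49, 2.78, 2.00 and 1.46. In adult DH it was 2.40, 2.86, 2.31, 2.56 and 2.42, and in aged DH 2.08, 2.03, 2.20, 2.00 and 2.45. The EH rats of both ages covered a wide range, whereas the DH rats lay in a narrow one. The SD of the log2 ratio was 0.337 in adult EH and 0.484 in aged EH, against 0.119 in both DH groups, a difference in spread that was not tested.

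No difference in the mean ratio passed the test in the 4 comparisons. The log2 difference was 0.31 in adult DH (exact permutation p = 0.0714, adjusted p = 0.286 over the 4 tests), 0.013 in ageing (exact permutation p = 0.960), 0.070 in aged DH (exact permutation p = 0.722) and -0.23 between the responses of the ages (p = 0.403 from 100000 permutations of residuals). All tests were two-sided. The lowest adult EH ratio, that of rat 2, came with the lowest Avp level of the series, and without that rat the adult DH difference was 0.18. Without adult EH rat 6 it was 0.40, with an unadjusted exact permutation p of 0.0159.

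**Figure D3:**
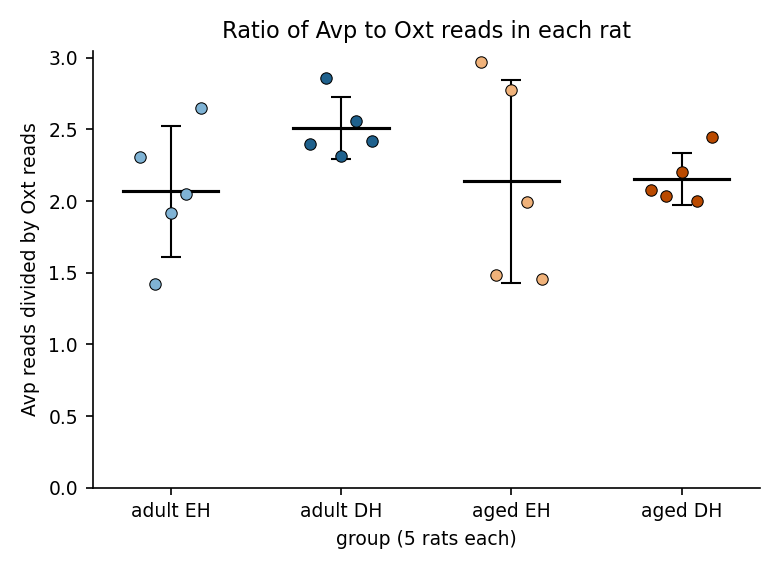
Avp reads divided by Oxt reads in each of the 20 rats (points), by group, with the group mean (line) and SD (bars). The 10 EH rats range from 1.42 to 2.97 and the 10 DH rats from 2.00 to 2.86.

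How far the genes varied together was measured over rats, as log2 levels after the mean of each group had been subtracted. Over all 20 rats Pearson's r was 0.284 (permutation p = 0.264) and Spearman's rho 0.250 (permutation p = 0.331). Without the 2 rats farthest from the median of Avp, adult EH 2 and aged DH 3, r was 0.120. Water supply was then looked at separately, a division chosen after the values of each rat had been seen. Among the 10 DH rats r was 0.892 and rho 0.830 (permutation p = 0.00188 and 0.00896, the former 0.0150 after adjustment over 8 relations). The 8 relations share rats, and the adjustment does not cover the choice of the division. Without aged DH 1 and 3 r was 0.819 and rho 0.714 (permutation p = 0.00932 and 0.059). Among the 10 EH rats r was -0.438 and rho -0.430 (permutation p = 0.250 and 0.258), and r was -0.653 without adult EH 2 and aged EH 6. The aged EH rats with the most Avp, 1 and 4, had the least Oxt of their group. Within the adult rats and within the aged rats r was 0.285 in each. The values of a rat share a library and a punch, and the difference between DH and EH was not tested.

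**Figure D4:**
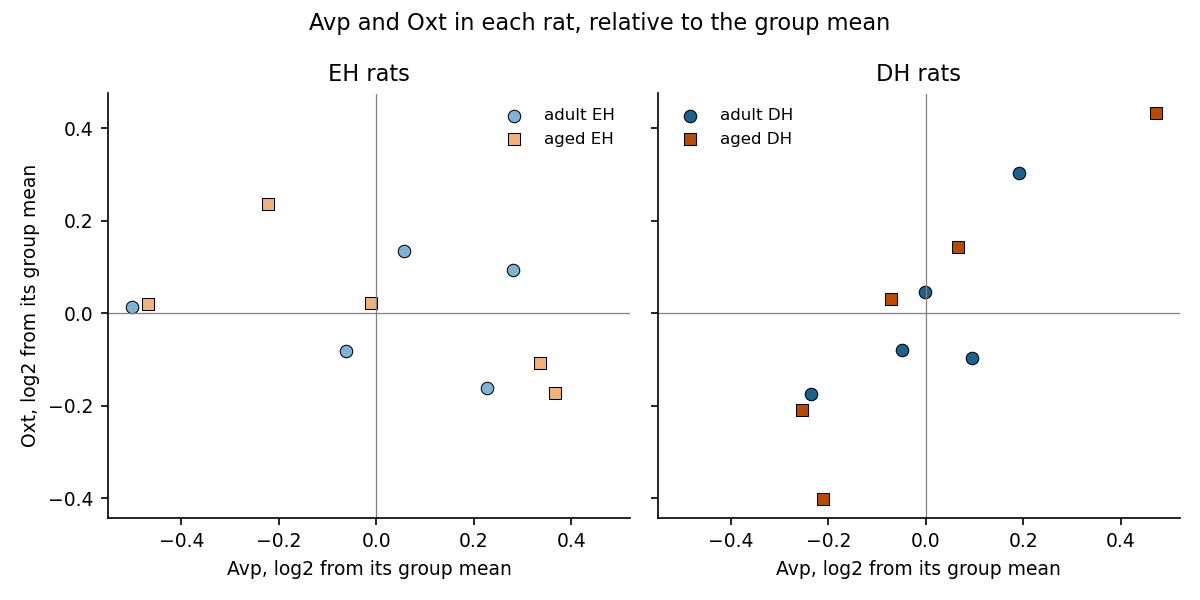
Oxt (y axis) against Avp (x axis) in each rat, both as log2 distance from the group mean, for the 10 EH rats (left) and the 10 DH rats (right), with adult rats as circles and aged rats as squares. In DH the points rise together (r = 0.892), led by aged DH rat 3, and in EH they do not (r = -0.438). The difference between DH and EH was not tested.

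The genes most like each member over rats were ranked by the same measure among 13098 genes. They are given as a description, over 20 rats that share libraries and depth. For Avp these were Cst6, a cystatin (r = 0.847), the transcription factor gene Atf5 (0.845), Os9, which encodes a lectin of protein quality control in the endoplasmic reticulum (0.839), the translation initiation factor gene Eif3d (0.834) and Fezf2, a transcription factor gene of the forebrain (0.833). Atf5 rose in all 3 comparisons, by an LFC of 0.39 in ageing (limma adjusted p = 0.0295), 0.63 in adult DH (5.24e-06) and 0.50 in aged DH (0.00784). Eif3d and Fezf2 passed in adult DH only (limma adjusted p = 0.0402 and 0.0133), and Cst6 and Os9 in none of the 3. For Oxt they were MGC94207 (r = 0.810), the class I histocompatibility gene RT1-M3-1 (0.797), Ap2s1, a subunit of the clathrin adaptor AP-2 (0.786), Tmem184c (0.780) and Rbm11, which encodes an RNA-binding protein (0.758). RT1-M3-1 passed in ageing (limma adjusted p = 0.00986), Rbm11 in adult DH (0.00839) and aged DH (0.0156), and the others of this list in none. Of all genes tested, 5.99% passed in ageing, 12.7% in adult DH and 7.29% in aged DH. Neither list held the other hormone gene, which ranked 2467 for Avp and 2001 for Oxt.

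The receptors of the hormones were at low levels in the SON. Summed over Avpr1a, Avpr1b, Avpr2 and Oxtr they were between 2.52 and 4.21 CPM in every rat, and Avpr1b and Avpr2 were too low to test. Avpr1a, the vasopressin receptor of vessels and brain, and Oxtr, the oxytocin receptor, did not pass with limma in the 4 comparisons. Oxtr reached 34.5 ± 2.7 normalised counts in aged EH rats and 23.5 ± 3.3 in the adult ones, at an LFC of 0.54 (limma adjusted p = 0.0729). It was called by edgeR on the reads of all 20 rats, at 0.55 (adjusted p = 0.0323). That fit called 1174 genes in ageing, against 921 (5.99% of those tested) by limma.

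Genes that process the precursors and build the granules rose in a large part of the list. In adult DH 6 of the 10 tested were higher and 0 lower (12.7% of all genes were called), with a list median LFC of 0.22 against -0.0073 over all genes. These were the convertase genes Pcsk1 and Pcsk2, Pam, which amidates both hormones, the granins Scg2 and Scg3, and Vgf, a precursor stored in the same granules. Vgf rose most, by an LFC of 1.76 (limma adjusted p = 4.42e-08), from 1353 ± 110 to 4612 ± 620 normalised counts, and Pam rose by 0.63 (limma adjusted p = 1.07e-06). In aged DH 5 of 11 were higher and 0 lower (7.29% of all genes), at a list median of 0.19 against -0.0030. The count was 7 higher without aged EH 4 and 6 without aged DH 1. By edgeR on the reads of all 20 rats, which called 1562 genes in aged DH, 7 of 10 were higher and 1 lower. Vgf rose by 1.02 there (limma adjusted p = 3.33e-05) and Pam by 0.39 (limma adjusted p = 0.00558), while Pcsk1 had an LFC of 0.35 (limma adjusted p = 0.0896). In ageing 6 of 11 were higher (5.99% of all genes), the same 6 named for adult DH, with Pcsk1 at an LFC of 0.48 (limma adjusted p = 0.0291) and a list median of 0.16 against 0.0003. That count was between 2 and 5 when 1 rat was left out, being 3 without aged EH 4 and 2 without any one of adult EH 1, 2, 5 and 6 and aged EH 2 and 5. Cpe, which trims the cut peptides, Chga and Chgb passed in none of these comparisons. Under library-total scaling 2 genes of this list were called lower in adult DH.

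Peptides made beside the hormones moved less uniformly. Pdyn, the dynorphin precursor found in vasopressin neurons, rose in ageing by an LFC of 0.78 (limma adjusted p = 0.00308), in adult DH by 1.04 (6.33e-06) and in aged DH by 0.58 (0.0262). Its normalised counts in the table of each age's DH comparison were 13183 ± 2009 in EH and 26931 ± 1757 in DH for adult rats, and 23699 ± 4595 and 35561 ± 8209 for aged rats. These tables were scaled separately. Crh, the corticotrophin-releasing hormone gene, rose in both DH comparisons, by 1.04 in adult (limma adjusted p = 0.00936) and 0.99 in aged rats (0.00637). In all, 2 of 11 were higher in ageing, where 5.99% of all genes were called, 3 in adult DH (12.7%) and 4 in aged DH (7.29%), where Cck and Adcyap1 were lower. The list medians were -0.027, 0.11 and 0.22, against 0.0003, -0.0073 and -0.0030 over all genes. In aged DH 3 of 4 markers of forebrain excitatory neurons were lower as well, with a list median of -1.89, and their part in the values of Cck and Adcyap1 was not tested. Without aged EH rat 5 the count in aged DH was 2 higher and 1 lower. Of the lower genes 1 was left without any one of aged DH 1, 5 and 6 and aged EH 1 and 4, and 3 were called without aged EH 2.

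Several genes of the list of regulators of the pair or of its mRNA had larger LFCs than the pair itself. By the study, the responses of Fos, Creb3l1, Giot1, Caprin2 and Rasd1 to dehydration had been measured before. The list was chosen with such results known, so its counts are a description and not an independent test. In adult DH 9 of 19 were higher and 2 lower (12.7% of all genes were called), with a list median of 0.29 against -0.0073 over all genes. Creb3l1, a transcription factor that acts on the Avp promoter, rose by an LFC of 1.91 (limma adjusted p = 2.32e-07), from 561 ± 90 to 2107 ± 280 normalised counts. Caprin2, whose protein binds Avp mRNA, rose by 1.82 (7.64e-08), Giot1, a zinc finger gene, by 1.90 (8.04e-08), and Rasd1, a Ras-like G protein of the cAMP pathway, by 0.85 (1.45e-05). Of the AP-1 genes, Fosl1 rose by 3.40 (4.87e-07), Fos by 1.13 (0.00251), Fosl2 by 0.59 (0.000543) and Jund by 0.29 (0.00501). Crem, the cAMP element modulator, rose by 0.55 (0.00029). Jun and Junb did not pass. Creb1, the CRE-binding factor itself, had an LFC of -0.085 (limma adjusted p = 0.563). The lower genes were Esr2 and Nr2f1, and their count was 1 without any one of adult EH 1 and 5 and adult DH 2, 3 and 5, and 3 without adult EH 2.

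In aged DH 8 of 19 regulators were higher and 4 lower (7.29% of all genes), and the list median was 0.12 against -0.0030. Creb3l1 rose by an LFC of 1.30 (limma adjusted p = 0.000776), Caprin2 by 0.87 (0.00528), Giot1 by 1.39 (3.74e-05) and Fosl1 by 1.88 (0.00017), while Fos had 0.78 (0.0740). For the nuclear receptors only the half-site AGGTCA had been searched, and a pattern for each receptor had not. Esr2, the estrogen receptor beta gene of oxytocin and vasopressin neurons, fell by 1.21 in adult DH (limma adjusted p = 0.00153) and by 0.64 in aged DH (0.0482). Nr2f1 fell in adult DH, and Nr3c1, Nr2f2 and Thrb in aged DH. The count of lower genes in aged DH was 1 to 3 when 1 rat was left out. It was 1 without aged EH 5, and 2 without aged EH 4 or aged DH 2, 3 or 5. In ageing 3 of 19 were higher and 1, Thra, lower (5.99% of all genes), at a list median of -0.006. The call for Thra held only without adult EH 6 or aged EH 4, and was lost without any one of the other 8 rats. The 3 were Caprin2, at an LFC of 0.88 (limma adjusted p = 0.00606), Giot1 (0.58, 0.0065) and Fosl1 (1.39, 0.0122). No gene of these lists passed the test of the difference between the ages with all 20 rats, by limma or by edgeR. Some passed with 1 rat left out. Vgf was called without adult DH 1 (-0.79 on the log2 scale, limma adjusted p = 0.0435), aged DH 3 (0.0419) or aged EH 6 (0.0143), Fosl1 without adult EH 5 (-1.73, 0.0458) or aged EH 6 (0.0143), and Caprin2 without aged EH 6 (-1.11, 0.0143).

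**Figure D5:**
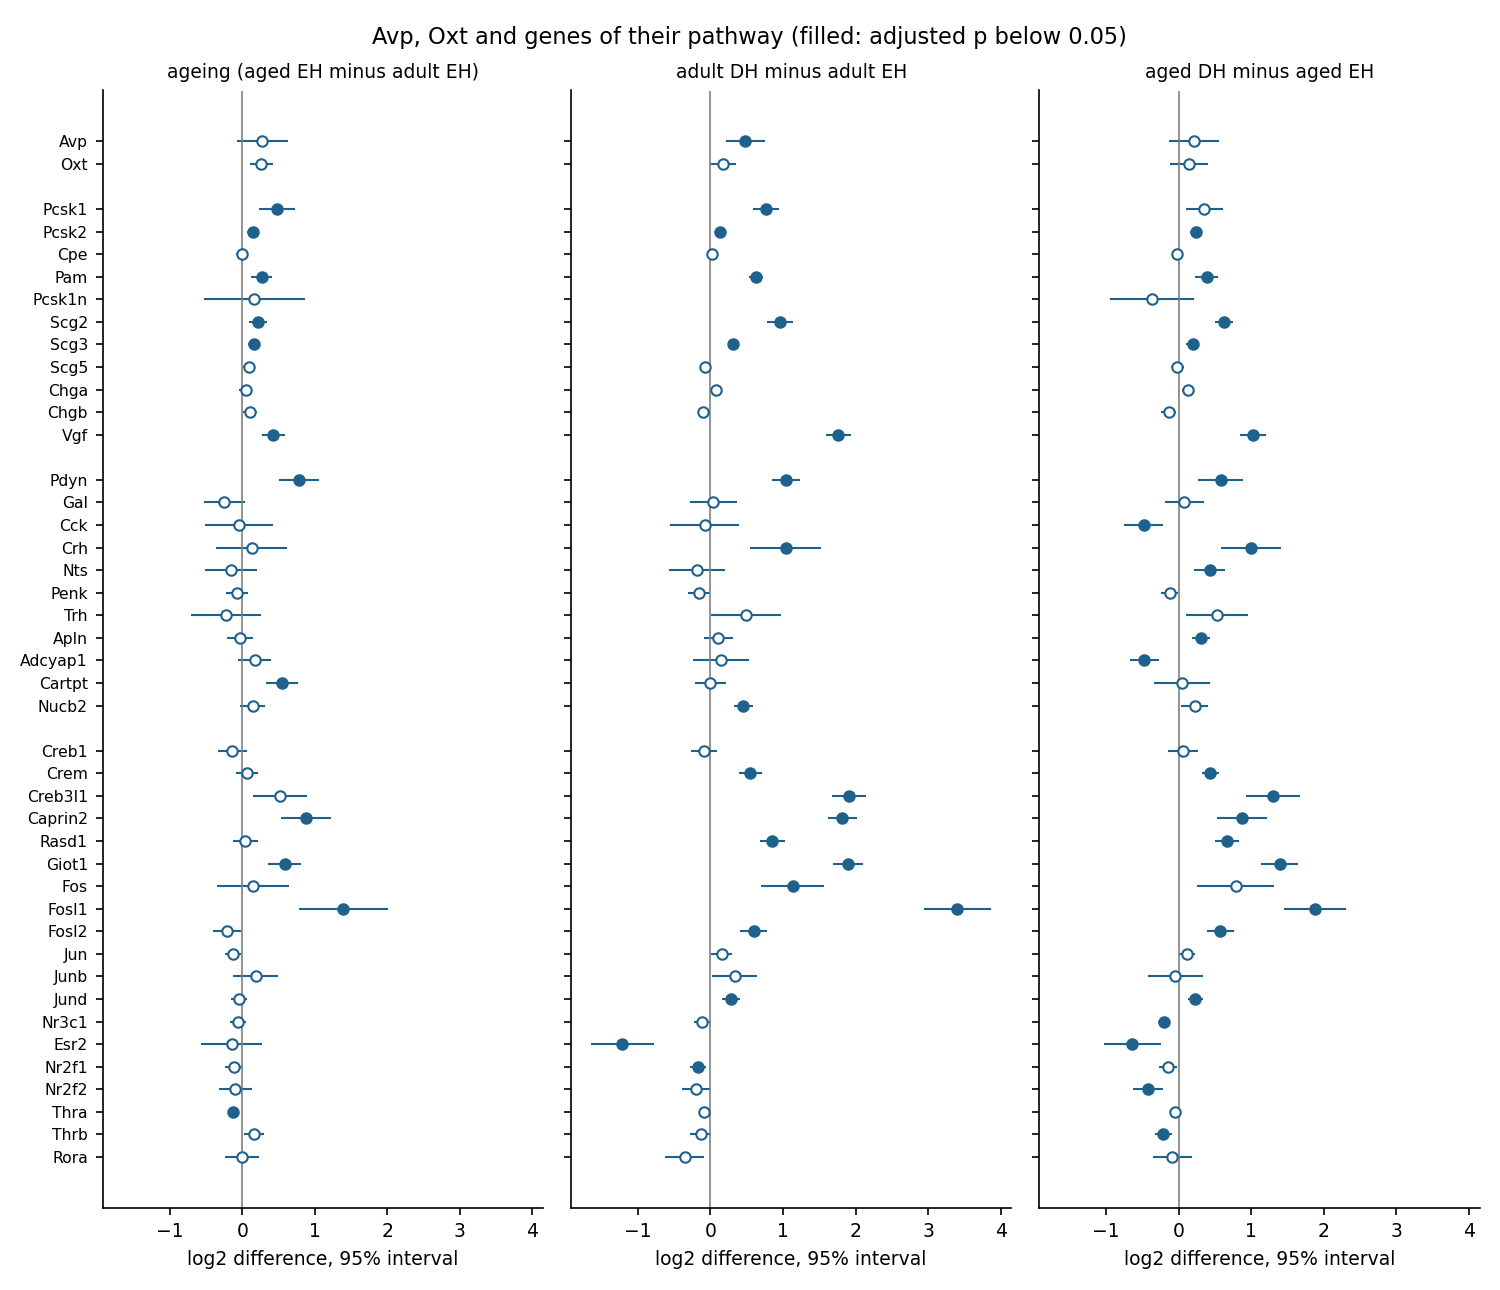
The log2 difference with its 95% interval (x axis, shared by the panels) for Avp, Oxt and genes of precursor processing, of co-made peptides and of regulation (y axis, in blocks from top to bottom), in ageing, adult DH and aged DH. Filled points passed at an adjusted p below 0.05. In adult DH the 0.48 of Avp lies far below the 3.40 of Fosl1, the 1.91 of Creb3l1 and the 1.76 of Vgf.

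Of the 10 nearest protein-coding neighbours of the pair on chromosome 3, 8 were matched and 7 tested. The share of all genes called was 12.7% in adult DH, 7.29% in aged DH and 5.99% in ageing. In adult DH Ddrgk1 rose by an LFC of 0.20 (limma adjusted p = 0.00408) and Ptpra, a receptor tyrosine phosphatase gene, by 0.12 (0.0183). In aged DH Ddrgk1, a gene of protein modification at the endoplasmic reticulum, rose by 0.21 (0.0221), and in ageing Ubox5 rose by 0.27 (0.0314). The call for Ddrgk1 in aged DH was lost without aged DH 2, 3 or 5 (adjusted p from 0.0520 to 0.0573), and that for Ubox5 without adult EH 1, 5 or 6 or aged EH 1, 2 or 5 (0.0606 to 0.0803). That for Ptpra was lost under library-total scaling (0.0511), and Mrps26 was called without adult DH 1 or 2 (0.0176 and 0.0398). The other neighbours did not pass, and the list medians lay between 0.051 and 0.12 in these 3 comparisons.

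Markers of other cells were measured in the same punches. Of all genes tested, 5.99% were called in ageing, 12.7% in adult DH and 7.29% in aged DH. Of the suprachiasmatic list, whose neurons also make vasopressin, 5 of 6 were matched and summed to between 18.6 and 29.2 CPM in every rat, where Avp was at least 4305 CPM. Prok2 of that list was called higher in both DH comparisons. Of the tested genes of the list, 3 lay above 0 and 1 below in adult DH. In aged DH 2 lay above and 3 below, at a list median of -0.19. In ageing 1 of 4 was called lower, and the sum was 19.9 to 22.5 CPM in aged EH against 24.2 to 27.6 CPM in adult EH. Markers of forebrain excitatory neurons summed to between 47.8 and 129 CPM in aged EH and between 17.1 and 46.2 CPM in aged DH, and 3 of the 4 were lower in aged DH, with a list median of -1.89. In adult rats they ran from 19.4 to 103 CPM in EH and from 21.3 to 71.3 CPM in DH. Oligodendrocyte markers were lower in ageing for 3 of 5 and summed to between 7928 and 9664 CPM in aged EH against 9058 to 13406 CPM in adult EH. The count of 3 was 5 without adult EH 4 and 2 without any one of adult EH 1, 5 and 6 and aged EH 2, 4, 5 and 6. Meningeal fibroblast markers summed to between 212 and 403 CPM in aged EH against 633 to 781 CPM in adult EH, with 3 of the 4 tested lower and Col1a2 at 0 reads in every rat. Among microglial markers 2 of 5 were higher in ageing, and 1 without any one of adult EH 5 and 6 and aged EH 2 and 5. Astrocyte, endothelial and choroid plexus lists changed by 1 gene or none in each comparison. The part of these shifts in the values of Avp, Oxt and the genes of their pathway was not tested.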

How the data were processed

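Poly(A) RNA of rat SON punches was sequenced by the study on a stranded paired-end protocol, 1 library per rat. The authors aligned reads with STAR to Rn6, counted them per gene with featureCounts and scaled them with DESeq2. No version of STAR or featureCounts was stated in the sources. The deposited signal values are read counts divided by a size factor, in 1 table for each of 3 comparisons, and all 30 columns of rats were used. The tables also hold the authors' own means, fold changes and p-values, which were not used.

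In all 20 libraries the values were whole multiples of 1 read (within 0.1 read), so whole reads were recovered and scaled to CPM by library total. Rats present in 2 tables gave identical reads. Equal replicate numbers did not pair rats (correlations of deviations from -0.131 to 0.206), so no block entered the reported fits.

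Normalised counts were taken as log2(value + 1). Genes with a mean of at least 10 were tested with limma 3.58.1 (R 4.3.3) with a mean trend, in two-sided tests, with p-values adjusted over every gene tested (Benjamini-Hochberg) and a threshold of 0.05. The age difference used each rat's value from the DH table of its age. edgeR 4.0.16 and DESeq2 1.42.0 were run on the recovered reads. Exact permutation tests were used for single values and 100000 permutations for correlations and residuals. Scripts were tested on simulated data. The likeness rule took the 5 genes with the highest r among those with a mean of at least 50. Genes are named from lists for receptors, processing, co-made peptides, regulators, neighbours and cell markers. Pcsk1n has more than 1 row and was read from the most abundant. The members and lists were chosen with earlier results of these data known.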

Additional observations from a re-analysis of the deposited data

How the results depend on the processing

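The rise of Avp in adult DH kept its direction in every fit. It lost its call without the mean trend (LFC 0.48, limma adjusted p = 0.0677), with all 20 rats in 1 fit (0.48, 0.0517), by edgeR on the reads of all 20 rats, an alternative chosen after seeing the data (0.46, 0.0609), and with the replicate block (0.49, 0.0875). What the replicate numbers stand for is not stated, and rats of equal number did not deviate together. The replicate block took calls in adult DH from 1934 to 987, in aged DH to 653 and for the age difference to 1. It changed no other call of Avp or Oxt. Without the mean trend 516 genes were called in ageing, 671 in aged DH and 1 for the age difference. Oxt in ageing passed by edgeR (0.27, adjusted p = 0.0487), DESeq2 (0.27, 0.00626) and the unadjusted exact permutation test of the single gene (0.26, p = 0.0238). The cause was not tested.

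Leaving out each rat in turn gave LFCs from 0.35 to 0.55 for Avp in adult DH, from 0.20 to 0.31 for Oxt in ageing, from -0.14 to 0.068 for Oxt in the age difference, and in aged DH against adult DH from -0.11 to 0.092 for Avp and from 0.13 to 0.34 for Oxt. The log2 ratio ran from -0.12 to 0.14 in ageing, 0.18 to 0.40 in adult DH and -0.052 to 0.21 in aged DH. Calls ran from 594 to 906 in ageing, 678 to 1186 in aged DH and 0 to 5 for the age difference, with fewer rats in each fit. Values close to 0 changed sign, that of Oxt in the age difference relative to the magnocellular genes (0.024) and that of Avp in aged DH against adult DH under library-total scaling (-0.0099). That scaling moved the median LFC of all genes by -0.030 in ageing and -0.026 in adult DH and turned the calls from 414 higher and 507 lower to 302 and 747 in ageing, and from 1172 and 762 to 890 and 1161 in adult DH. At these depths counting error was small for both genes. The limma interval for Avp in aged DH, narrower than its own spread would give, still allowed a change of up to 1.47-fold.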

Other observations

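Avp differed more between rats of 1 group than almost any other gene with a mean of at least 10000 normalised counts, and Oxt more than most. Most genes of that set were less abundant than either. In the ageing comparison the residual SD of Avp was 0.335 on the log2 scale, and among the 312 genes with a mean of at least 10000 normalised counts the median was 0.0592. Larger values in that set were seen in 2 genes, Hba1, a haemoglobin gene of red blood cells, and Ptgds, a prostaglandin synthase gene of meninges and glia, which were chosen after their values were seen. The same 2 genes exceeded Avp in adult DH, where its residual SD was 0.248, and in aged DH, where it was 0.327. The residual SD of Oxt was 0.141 in ageing, exceeded by 18 of the 312 genes. It was 0.158 in adult DH, exceeded by 12 of 300, and 0.253 in aged DH, exceeded by 4 of 320.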
